A study of Oryza sativa with 9 samples.

Results

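In developing rice seeds, 149 transcripts were lower in every library of both RBP-P mutant lines than in any wild-type library by a set margin, of 16064 genes whose mean level reached 1 RPKM (a read count scaled to transcript length and to library size) and of 55986 gene loci in the deposited table. The members were chosen by their RPKM values in these same libraries: the mean over the 9 libraries was 1 RPKM or more, the lowest wild-type value was at least 1.5 times the highest mutant value, and that highest mutant value was at least 10% of the lowest wild-type value. The last condition left out transcripts that were nearly absent from all mutant libraries. The WT and mutant values chose the members, so the differences from wild type given here are a description and carry no test.

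Rice RBP-P is an RNA-binding protein with RNA recognition motifs, known for binding the mRNAs of seed storage proteins and for its part in carrying them to their places on the endoplasmic reticulum. An RNA-binding protein of this kind can act on the splicing, transport, stability or translation of the transcripts it binds, and a change in steady-state RNA does not tell which. The developing grain holds a starchy endosperm, which fills with starch and storage protein, an aleurone layer, an embryo and a green seed coat.

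The study compared 3 genotypes: wild type (WT), P1MH, which carries the RBP-P change G401S, and P3MH, which carries A252T. All 3 were grown in chambers kept at 27 °C on a day of 12 h light and a night of 12 h, and total RNA came from seeds without hulls, taken 10 to 14 days after flowering. Each genotype had 3 biological repeats. Each change was carried by 1 named line, so the change and anything else in which that line differs from WT cannot be told apart. The form of the read counts also ran with genotype: WT values lay on steps of 0.5 read and mutant values on whole reads. A difference from WT and a difference in counting cannot be told apart either.

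The reads recovered from the table amounted to 5865007 to 7498434 per library. RBP-P itself was at 13.95 ± 1.94 RPKM in WT against 9.43 ± 2.09 in P1MH and 9.50 ± 2.14 in P3MH (mean and SD, n = 3), and with a lowest WT value 1.068 times the highest mutant value it was not a member. Both lines carry single amino-acid changes, so this level does not check the labels. All 4 endosperm, 6 embryo and aleurone, 4 green-tissue and 7 dividing-cell markers were above 0 in every library, and none was a member. The summed endosperm markers lay at 23400 to 28200 RPKM in WT libraries, at 37800 to 43500 in those of P1MH and at 25400 to 31900 in those of P3MH. In the same order, the embryo and aleurone markers summed to 642 to 994, 1200 to 1820 and 914 to 1210 RPKM. The green-tissue markers summed to 299 to 349, 241 to 346 and 254 to 355 RPKM, and the dividing-cell markers to 44.3 to 67.3, 19.4 to 26.4 and 29.2 to 36.1. The endosperm and embryo sums were thus higher in every P1MH library than in WT, and the dividing-cell sum was lower in every mutant library. Most of the endosperm sum came from the storage-protein genes GluA-1 and GluA-2, at WT means of 13990 and 10670 RPKM. GBSSI was at 604 and NF-YB1 at 197, so the sum mainly follows the 2 storage-protein genes. NF-YB1 was lower in the mutants, at 121 RPKM in P1MH and 130 in P3MH. Single markers did not all follow their sums: limma called 2 endosperm markers higher in P1MH and 1 lower, with 1 lower in P3MH, and 3 embryo and aleurone markers higher in P1MH and 0 in P3MH. It called 6 dividing-cell markers lower in P1MH but 1 in P3MH, and 2 green-tissue markers lower in P1MH and 1 in P3MH. The part of these shifts in the members' values was not tested. In bulk seed RNA, fewer cells of a type and less RNA per cell cannot be told apart.

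Summed over the 149 members, the level was 7071 ± 121.6 RPKM in WT against 2494 ± 198.4 in P1MH and 2580 ± 199.0 in P3MH (mean and SD, n = 3). Members held 1.26 to 1.31% of all RPKM in the WT libraries, but 0.441 to 0.518% in P1MH libraries and 0.467 to 0.532% in P3MH libraries. The median member had a mean level of 23.65% of the WT mean in P1MH and 25.65% in P3MH, and the least lowered stood at 57.87% and 62.13%. Most members were modestly expressed: 11 had a WT mean of 100 RPKM or more, 69 one of 10 to 100 RPKM and 69 one under 10 RPKM, with a median of 11.79 RPKM. The lowest WT value was under 2 times the highest mutant value in 76 members, 2 to 4 times in 47 and 4 times or more in 26. In 34 members the table lists a 0 in at least 1 mutant library, and in 6 a 0 in all 3 libraries of 1 mutant. The rule as applied allows no 0 in a WT library, so these counts are not set against WT. On the log2(RPKM + 1) scale of the limma fit the median fitted difference from WT was -1.745 for P1MH and -1.49 for P3MH over the members, beside -0.099 and -0.126 over all genes tested. Both differences share the WT libraries, and the rule used that contrast. Turned round, with the mutants high, the same rule found 80 genes.

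**Figure D1:**
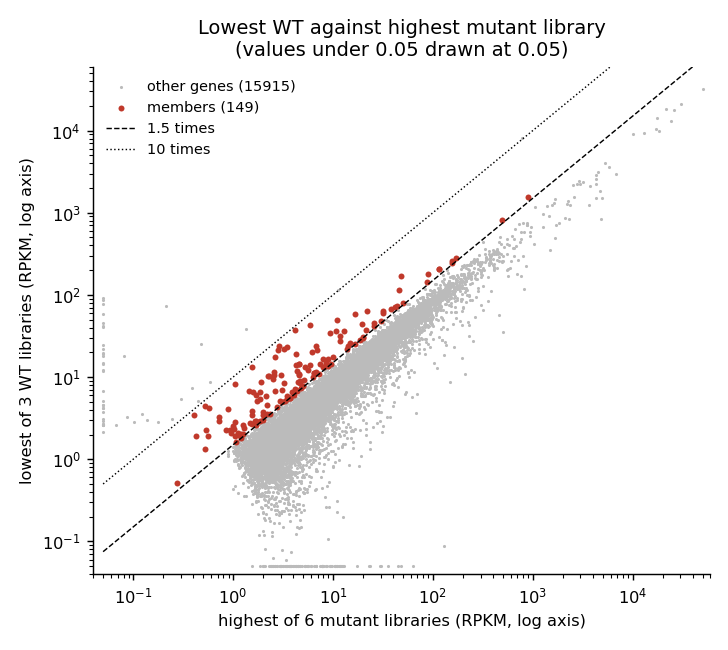
The lowest of the 3 WT values of each gene (RPKM, log axis) against the highest of its 6 mutant values (RPKM, log axis), with values under 0.05 drawn at 0.05. The 149 members (red) lie between the dashed line at a ratio of 1.5 and the dotted line at a ratio of 10. They cover a wide range of levels but not that of the most abundant genes. The other genes of mean 1 RPKM or more are grey.

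Limma called 146 members lower in P1MH than in WT, 139 lower in P3MH and 138 lower in both, at an adjusted p under 0.05, beside 5.63%, 3.1% and 1.84% of all genes tested. All 6 mutant libraries lay below all 3 WT libraries in 10.9% of the genes tested, and the members are 0.928% of them. The rule used these contrasts, and nothing is read from the members' counts.

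The most abundant members were 2 loci of chromosome 7 for which no name was tried. LOC_Os07g11510 (chromosome 7, 6336108 to 6336920, minus strand, in the coordinates of the deposited table, whose genome build is not given in the sources used here) had 1553, 1935 and 1580 RPKM in WT, against 686, 892 and 889 in P1MH and 797, 581 and 512 in P3MH. LOC_Os07g33997 (chromosome 7, 20310035 to 20312111, plus strand) had 826, 950 and 1126 RPKM in WT, against 429.9, 417 and 400.4 in P1MH and 475, 490.2 and 396 in P3MH. Every WT library stood above every mutant library, and the mutants overlapped with each other in both loci. The WT mean of LOC_Os07g11510 was 2.05 times the P1MH mean and 2.68 times the P3MH mean, and that of LOC_Os07g33997 was 2.33 and 2.13 times. Together they held 37.6% of the members' summed RPKM in WT but 49.7% in P1MH and 42.0% in P3MH. LOC_Os07g11510 alone had 8605 reads in its lowest WT library and 4715 in its highest mutant library, so low read numbers add little error to its values. The part of the different read steps in WT and mutants was not tested.

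TPI (LOC_Os01g05490, chromosome 1, 2589537 to 2593641, minus strand), the triosephosphate isomerase of glycolysis, was the most abundant member with a checked name. Its RPKM values were 305, 278 and 306 in WT, against 91.9, 130.2 and 133 in P1MH and 169, 104 and 118 in P3MH. The 3 WT libraries lay close together and well above the 6 mutant libraries, and P1MH and P3MH overlapped. TPI stood at 39.9% of WT in P1MH and 43.9% in P3MH.

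Lipid transfer proteins, small secreted proteins that bind lipids, came from matching places on chromosomes 11 and 12. LTP110-A (LOC_Os11g02350, chromosome 11, 684611 to 685626, plus strand) had 179.9, 185.5 and 179.1 RPKM in WT, against 82.7, 88.4 and 56.0 in P1MH and 70.3, 72.7 and 70.4 in P3MH. LTP2-B (LOC_Os12g02310, chromosome 12, 732978 to 734220, plus strand) had 72.7, 73.3 and 74.2 RPKM in WT, against 42.8, 43.2 and 41.4 in P1MH and 34.8, 30.5 and 44.1 in P3MH. WT was high and nearly constant in both, and the mutants were lower and overlapped. The locus next to LTP2-B, LOC_Os12g02300, has no checked name. It had 209, 224 and 228 RPKM in WT, against 105.4, 116 and 76.1 in P1MH and 104, 86.5 and 100.6 in P3MH. LOC_Os11g02369, near LTP110-A, was at 30.5 ± 2.27 RPKM in WT, against 17.2 ± 1.36 in P1MH and 12.0 ± 3.76 in P3MH (mean and SD, n = 3). The ends of chromosomes 11 and 12 are known to be near copies of each other in rice. Whether reads of these 4 loci were shared between copies was not tested, and their separate levels are uncertain to that extent.

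Members of UDP-sugar metabolism were low in level and lower still in the mutants. UAM3 (LOC_Os07g41360), a UDP-arabinopyranose mutase that supplies arabinose for cell walls, had 13.7, 13.1 and 14.1 RPKM in WT, against 6.51, 7.88 and 7.37 in P1MH and 7.20, 5.83 and 5.75 in P3MH. UGD4 (LOC_Os12g25690), a UDP-glucose dehydrogenase that makes the UDP-glucuronate used for wall polymers, had 9.29, 7.78 and 8.53 RPKM in WT, against 3.02, 4.92 and 4.31 in P1MH and 5.06, 4.47 and 4.09 in P3MH. UAM3 stood at 53.2% of WT in P1MH and 46.0% in P3MH, UGD4 at 47.9% and 53.2%, and the mutants overlapped in both. FOR1 (LOC_Os07g38130), a leucine-rich repeat protein that inhibits polygalacturonase, the enzyme that cuts pectin, had 3.63, 2.29 and 2.42 RPKM in WT, against 0.351, 0.851 and 0.737 in P1MH and 0.212, 0.340 and 0.279 in P3MH. FOR1 had 25 reads in its lowest WT library and 8 in its highest mutant library, and P3MH lay below P1MH in all libraries. Its difference between the mutants did not pass the test (log2 difference P1MH minus P3MH 0.35, SE 0.21, limma adjusted p = 0.524).

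SFR2 (LOC_Os11g45710, chromosome 11, 27648702 to 27655231, minus strand) is named for the Arabidopsis enzyme that remodels galactolipids of the chloroplast envelope and protects against freezing. It had 13.3, 14.5 and 15.3 RPKM in WT, against 4.44, 5.19 and 2.53 in P1MH and 3.98, 2.43 and 4.47 in P3MH. The mutants overlapped, at 28.2% of WT in P1MH and 25.2% in P3MH.

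Among regulators, GATA20 (LOC_Os06g48534), a GATA-type zinc finger transcription factor, had 15.1, 15.2 and 14.3 RPKM in WT, against 7.04, 5.29 and 5.84 in P1MH and 7.36, 6.81 and 5.06 in P3MH. TF1 (LOC_Os01g57890), a homeodomain-leucine zipper transcription factor, had 10.5, 11.3 and 13.6 RPKM in WT, against 2.50, 3.71 and 0.658 in P1MH and 2.87, 3.07 and 4.60 in P3MH. The GATA20 values of the mutants were even, whereas TF1 in the third P1MH library stood far below the other two. HSP26.7 (LOC_Os03g14180), a small heat-shock chaperone of plastids, had 17.68, 13.8 and 13.1 RPKM in WT, against 4.16, 3.90 and 3.02 in P1MH and 3.28, 8.05 and 4.05 in P3MH, where the second P3MH library stood nearest to WT.

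The rest of the 10 most abundant members are loci without a checked name. LOC_Os10g05750 had 260.2, 268 and 275 RPKM in WT, against 88.2, 119 and 87.2 in P1MH and 151, 155 and 143 in P3MH. LOC_Os04g28420 had 166, 145 and 142 RPKM in WT, against 47.1, 42.4 and 41.1 in P1MH and 57.3, 87.1 and 66.4 in P3MH. Both were graded, with P1MH lowest, P3MH between and no overlap among the 3 genotypes. LOC_Os11g04000 stood furthest below WT among these 10, with 183, 168 and 211 RPKM in WT, against 29.8, 48.2 and 11.9 in P1MH and 46.6, 27.3 and 42.7 in P3MH. LOC_Os03g45280 was at 270.2 ± 34.7 RPKM in WT, against 85.0 ± 43.9 in P1MH and 122 ± 46.6 in P3MH, and LOC_Os03g25350 at 265 ± 52.9, 66.4 ± 34.6 and 91.8 ± 24.1 (mean and SD, n = 3), with wide spreads within each mutant.

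**Figure D2:**
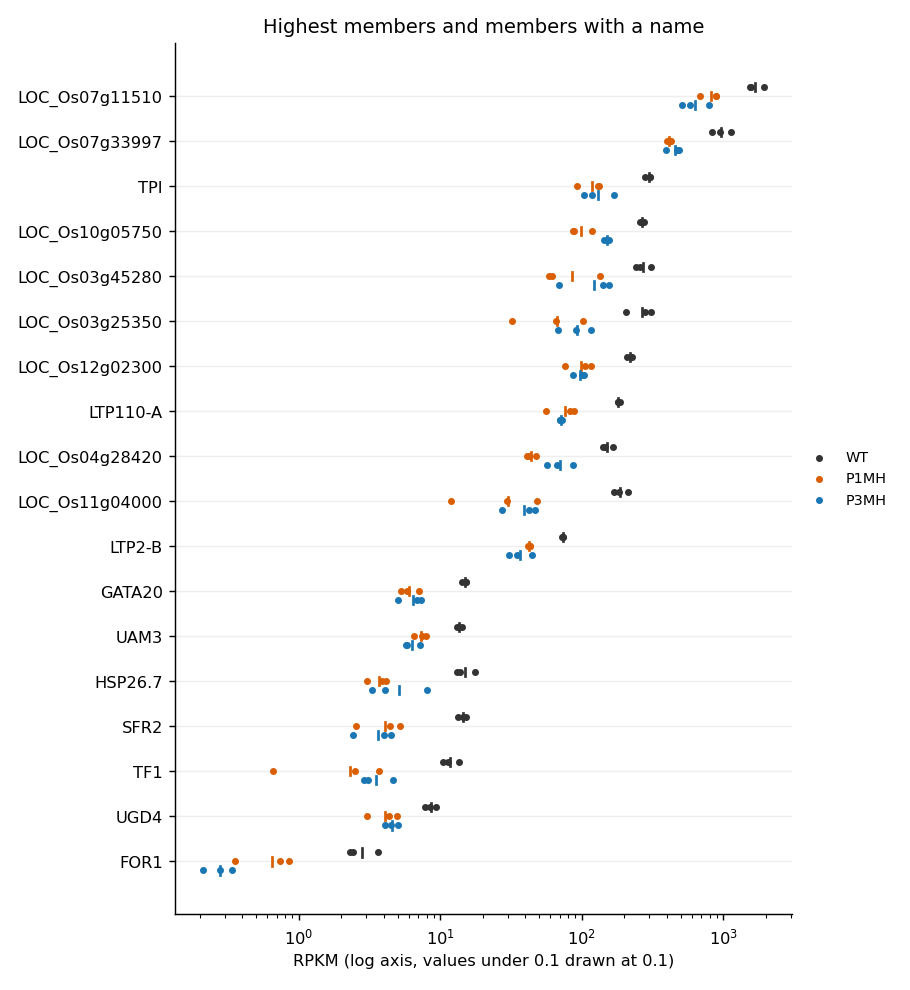
RPKM (log axis) of the 10 members of highest mean and of the members with a checked name, 1 point per library and a tick at the mean of each genotype (n = 3). WT (black) lies above P1MH (orange) and P3MH (blue) in every row, as the rule requires, and the mutants overlap in most rows, with LOC_Os10g05750 and LOC_Os04g28420 lower in P1MH.

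The widest gaps from WT belonged to loci without a checked name. LOC_Os06g50490 (chromosome 6, 30568515 to 30571159, minus strand) had 40.1, 36.9 and 51.4 RPKM in WT, against 3.64, 2.83 and 4.21 in P1MH and 2.67, 2.43 and 2.07 in P3MH, so that its lowest WT value was 8.77 times its highest mutant value. LOC_Os06g08990 had 22.9, 24.0 and 21.4 RPKM in WT, against 1.85, 1.12 and 2.50 in P1MH and 2.80, 2.09 and 2.33 in P3MH. LOC_Os07g38290 had 28.3, 21.9 and 25.3 RPKM in WT, against 3.27, 2.34 and 2.63 in P1MH and 1.87, 1.66 and 0.956 in P3MH. In these 3 the mutant values were low but present in all 6 libraries.

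Several others were near the floor of detection in some mutant libraries. LOC_Os05g14330 had 13.3, 18.1 and 14.7 RPKM in WT, against 0.186, 0.169 and 1.56 in P1MH and 0.393, 0.120 and 0.148 in P3MH. LOC_Os07g09760 had 10.9, 8.34 and 8.60 RPKM in WT, against 1.03, 0.376 and 0.0310 in P1MH and 0.156, 0.134 and 0.0548 in P3MH. In each of them a single P1MH library, the third of LOC_Os05g14330 and the first of LOC_Os07g09760, held the value that kept the member above the rule's 10% limit. LOC_Os11g45360 did the same, with 46.6, 43.3 and 43.9 RPKM in WT, against 5.86, 1.60 and 0 in P1MH and 0.530, 0.567 and 0 in P3MH. LOC_Os04g16834 was at 26.1 ± 3.14 RPKM in WT, against 1.29 ± 0.702 in P1MH and 1.29 ± 1.45 in P3MH (mean and SD, n = 3). LOC_Os10g03970 had 5.27 ± 0.964, 0.326 ± 0.214 and 0.0320 ± 0.0554 RPKM and is listed at 0 in 2 P3MH libraries.

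Low depth limits what the ratios of such members show. LOC_Os02g07600 had 6.54, 4.39 and 6.84 RPKM in WT and was listed at 0 in all P1MH libraries. In P3MH it had 0, 0 and 0.525 RPKM, where the last value was 1 read at the smaller of the 2 transcript lengths that fit. LOC_Os02g15710 had 6.36, 3.50 and 5.002 RPKM in WT and 0.406 and 0.405 RPKM, again 1 read at most, in 1 library of each mutant. With 3 reads in a transcript of 1 kb worth 0.400 to 0.512 RPKM depending on the library, a listed 0 does not show that such a transcript was absent. The highest mutant library had at most 10 reads in 34 members and under 3 reads in 5, against a median of 33 reads. This floor covers counting error alone, since no molecular identifiers are recorded.

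**Figure D3:**
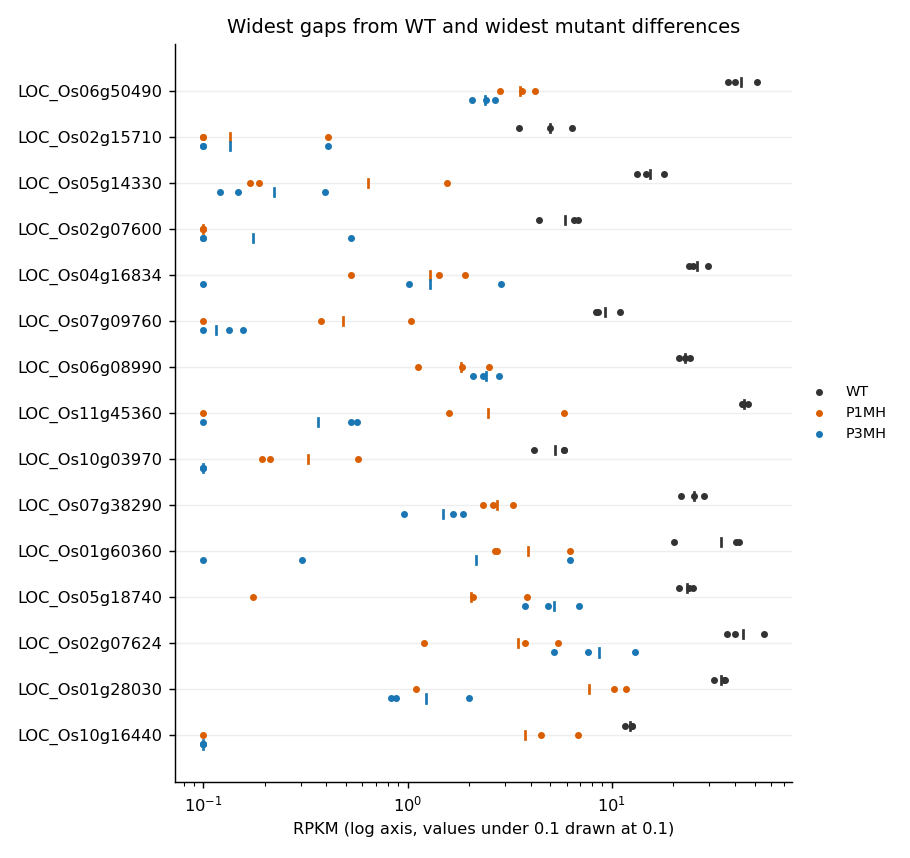
RPKM (log axis, values under 0.1 drawn at 0.1) of the 10 members of widest gap between WT and mutants and the 5 of widest difference between the mutants, 1 point per library and a tick at the mean of each genotype (n = 3). WT (black) lies far to the right of both mutants in the upper rows, and in LOC_Os01g28030 and LOC_Os10g16440 the third P1MH library (orange) lies with P3MH (blue).

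At the edge of the rule members and other genes lay close together. The 5 members of smallest ratio, LOC_Os03g52320, LOC_Os09g09040, LOC_Os02g20310, LOC_Os04g54620 and LOC_Os01g03570, had lowest WT values 1.501 to 1.507 times the highest mutant value. LOC_Os01g03570 had 30.7, 30.2 and 30.7 RPKM in WT, against 15.2, 16.6 and 13.5 in P1MH and 17.9, 18.9 and 20.1 in P3MH. Just outside lay LOC_Os09g38440 (ratio 1.495), LOC_Os10g28200 (1.493), LOC_Os07g04350 (1.49), LOC_Os04g28040 (1.482) and LOC_Os02g39400 (1.482). LOC_Os09g38440 had 7.80, 8.84 and 9.50 RPKM in WT, against 5.22, 4.68 and 4.49 in P1MH and 5.08, 3.85 and 5.22 in P3MH.

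WT repeats differed widely in 5 members, whose highest WT library was over 3 times the lowest. LOC_Os10g38272 had 20.6, 3.38 and 1.92 RPKM in WT, LOC_Os06g50539 13.03, 3.31 and 4.36, and LOC_Os02g50805 3.94, 1.91 and 8.55. LOC_Os04g36750 had 6.22, 2.83 and 1.35 RPKM in WT, and LOC_Os01g66930 had 0.518, 6.86 and 7.43. Apart from LOC_Os06g50539, which belongs to a run of 3 neighbours, these were named after their values were seen. No single WT repeat was the high one in all of them, and their WT means say little about a typical level.

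The contrast between the mutants is the one that the rule did not use to set a direction, although the rule limits the highest of the 6 mutant values. Limma on log2(RPKM + 1) called 0 members different between P1MH and P3MH at an adjusted p under 0.05, beside 5 of all genes tested (0.0311%). The smallest adjusted p of a member was 0.0753, for LOC_Os04g28120. At an unadjusted p under 0.05 there were 30 members (20.1%), beside 12.8% of all genes tested. Of these, P1MH was lower in 21 members (14.1%, beside 5.72% of all) and higher in 9 (6.04%, beside 7.07%). All P1MH libraries lay below all P3MH libraries in 18 members (12.1%, beside 6.47% of all), and above them in 12 (8.05%, beside 8.81%). The fitted P1MH level was the lower one in 87 members and the higher one in 62, that is 58.4% lower beside 46.1% of all genes tested. The median fitted difference was -0.12 over the members and 0.024 over all genes tested. The SD of the members' median between libraries of 1 mutant was 0.0775. The members' median moved to -0.025 without P3MH replicate 3, to -0.05 without P1MH replicate 1, to -0.056 without P1MH replicate 3 and to -0.071 without P3MH replicate 1. On log2(RPKM + 5) it was -0.044, and over the 80 members with a mean of 5 RPKM or more -0.195. Scaled without the 50 highest genes it was -0.075, where the median over all genes tested rose to 0.066. Median-ratio, quantile and upper-quartile rescaling gave -0.152, -0.149 and -0.161, beside -0.007, 0.001 and -0.018 over all genes tested. These shares describe the list, and no member passed the test that covers all genes.

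**Figure D4:**
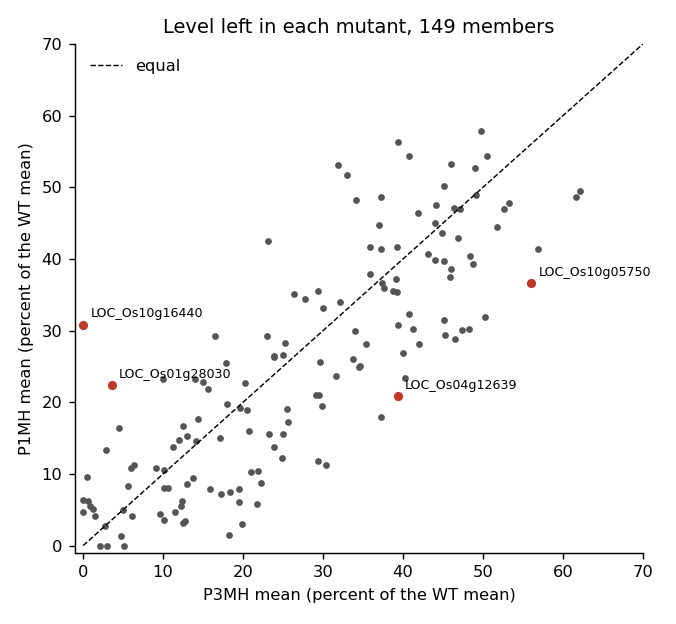
The P1MH mean (percent of the WT mean) against the P3MH mean (percent of the WT mean) of the 149 members, with the dashed line where they are equal. Points lie on both sides of the line up to 57.87% and 62.13%, and 4 members discussed in the text are marked in red.

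The members that came nearest to the threshold were LOC_Os04g28120 and LOC_Os04g12639. Both lie on chromosome 4 and have no checked name, and both were picked out after their values were seen. LOC_Os04g28120 had 77.9, 63.7 and 78.1 RPKM in WT, against 10.5, 8.29 and 7.89 in P1MH and 15.9, 16.8 and 21.9 in P3MH (log2 difference P1MH minus P3MH -0.95, SE 0.16, limma adjusted p = 0.0753). LOC_Os04g12639 had 74.8, 60.8 and 72.5 RPKM in WT, against 14.9, 15.7 and 12.7 in P1MH and 27.3, 22.8 and 31.7 in P3MH (-0.87, SE 0.15, limma adjusted p = 0.0832). In both, every P1MH library lay below every P3MH library. LOC_Os10g05750 and LOC_Os04g28420, graded in the same order, had log2 differences of -0.62 (SE 0.15) and -0.66 (SE 0.16), each with a limma adjusted p of 0.181.

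The widest fitted differences between the mutants rested on uneven libraries. LOC_Os01g28030 (chromosome 1, 15672566 to 15676615, minus strand) had 31.8, 35.9 and 35.6 RPKM in WT, against 10.3, 11.8 and 1.10 in P1MH and 1.99, 0.829 and 0.876 in P3MH. LOC_Os10g16440 (chromosome 10, 8193773 to 8201072, plus strand) had 12.5, 12.6 and 11.6 RPKM in WT, against 6.81, 4.52 and 0 in P1MH and was listed at 0 in all P3MH libraries. In both, the first 2 P1MH libraries stood between WT and P3MH, and the third P1MH library lay within or beside the P3MH values. With all libraries the log2 differences P1MH minus P3MH were 1.63 (SE 0.61, limma adjusted p = 0.325) and 1.81 (SE 0.62, limma adjusted p = 0.29). Without the third P1MH library they were 2.47 (limma adjusted p = 3.03e-05) and 2.71 (limma adjusted p = 8.24e-06).

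Leaving out that library moved more than these 2 loci: 7 members were then called between the mutants, and 242 of all genes. The other 5 were LOC_Os11g45360 (log2 difference 1.66), LOC_Os04g26590 (1.45) and LOC_Os02g55770 (0.86), higher in P1MH, and LOC_Os04g12639 (-0.78) and LOC_Os04g28120 (-0.88), lower in P1MH, with limma adjusted p values of 0.042, 0.0462, 0.0323, 0.0437 and 0.0336. LOC_Os11g45360 had 10 reads in its highest mutant library and LOC_Os04g26590 an inferred 5 or more, so both calls rest on few reads. In 8 members (beside 0.996% of all genes tested) each of the other P1MH libraries was at least 1 RPKM and over 3 times the third one. By the same measure within their genotypes, the other 8 libraries had 0 to 3 such members each. Members with a lower value in either of the other libraries were not counted. Found without it, the rule gives 164 genes, 146 of them among the 149. What sets that library apart was not tested.

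The remaining members of widest mutant difference varied within a genotype. LOC_Os02g07624 was at 44.0 ± 10.1 RPKM in WT against 3.46 ± 2.13 in P1MH and 8.60 ± 3.99 in P3MH (mean and SD, n = 3). LOC_Os05g18740 had 24.9, 21.4 and 23.9 RPKM in WT, against 3.86, 0.175 and 2.08 in P1MH and 4.89, 6.91 and 3.76 in P3MH. LOC_Os01g60360 had 20.2, 40.7 and 42.0 RPKM in WT, against 2.67, 6.23 and 2.74 in P1MH and 6.21, 0 and 0.303 in P3MH. The mutants overlapped in all 3, and their limma adjusted p values were 0.287, 0.289 and 0.554.

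By position, the members lay on all 12 chromosomes, and 1 lay in the set the table calls Sy, where 8 genes were tested. Chromosome 4 held 21 (1.56% of its genes tested), chromosome 11 held 13 (1.56%) and chromosome 12 held 12 (1.37%), beside 0.928% over all chromosomes. Chromosome 9 held 2 (0.227%) and chromosome 3 held 9 (0.41%), whereas chromosome 1, which carries RBP-P, held 20 (0.887%). No member lay within 50 loci of RBP-P, and the nearest was 139 loci and 904.1 kb away.

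**Figure D5:**
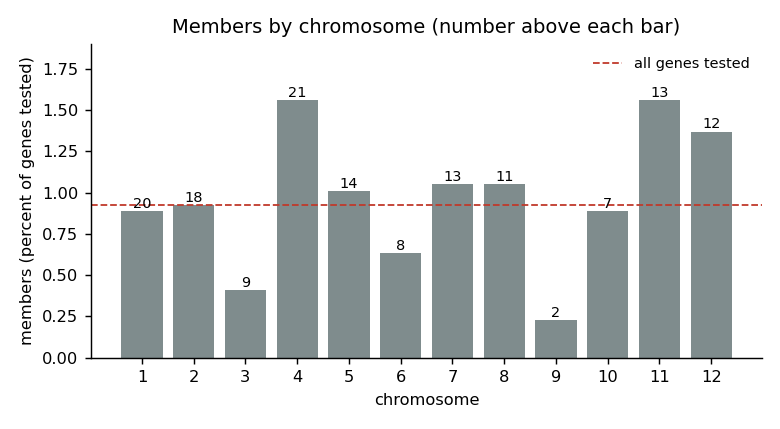
Members as a percent of the genes tested on each chromosome, with their number above each bar and a dashed line at the 0.928% of all genes tested. Chromosomes 4, 5, 7, 8, 11 and 12 stand above the line, with 4, 11 and 12 the highest, and chromosomes 3 and 9 have the lowest bars.

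Some members were neighbours. Within 10 loci of another member lay 31 of the 149, in 14 runs, of which 3 held 3 members and 11 held a pair. No share for other sets of tested genes is set beside this count, so it describes the list only. On chromosome 2, LOC_Os02g07550, LOC_Os02g07600 and LOC_Os02g07624 lay within 37.1 kb on 1 strand. On chromosome 6, LOC_Os06g50490, LOC_Os06g50520 and LOC_Os06g50539 lay within 34.3 kb on both strands, and the 1 other tested gene of that stretch was also lower in all mutant libraries than in WT. Among the pairs, this held for 2 of 2 such genes in the run that starts at LOC_Os05g22716. It held for 0 of 3 in that of LOC_Os01g66830 and 0 of 2 in that of LOC_Os04g49720. On chromosome 11, LOC_Os11g45290, LOC_Os11g45295 and LOC_Os11g45360 lay within 30.1 kb. Levels within a run were far apart: LOC_Os11g45290 was at 27.5 ± 3.52 RPKM in WT, against 9.85 ± 1.07 in P1MH and 10.3 ± 3.26 in P3MH, while LOC_Os11g45295 was at 7.13 ± 1.27, 2.97 ± 1.03 and 2.56 ± 1.06 (mean and SD, n = 3).

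Adjacent pairs also differed in how far they were lowered. LOC_Os07g33997, the second most abundant member, lies beside LOC_Os07g34006 on the opposite strand, which had 9.79, 7.18 and 6.63 RPKM in WT, against 1.57, 1.22 and 0.806 in P1MH and 0.811, 1.08 and 1.16 in P3MH. LOC_Os08g11470 and LOC_Os08g11480, side by side on the plus strand of chromosome 8, were more alike. The first was at 50.5 ± 2.01 RPKM in WT against 9.71 ± 0.655 in P1MH and 9.92 ± 1.60 in P3MH, and the second at 67.3 ± 8.77 against 15.2 ± 1.61 and 13.6 ± 2.50 (mean and SD, n = 3). Neighbours may share reads where their models adjoin, and the strand setting of the counting is not given in the sources used here. The 95 tested genes directly beside a member that were not members had a median log2 difference of -0.19 between mutants and WT, beside -0.11 over all tested non-members, and 22.1% of them had all mutant libraries below WT, beside 10.0%.

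The members' gene models were shorter than usual, with a median span of 2569 bases beside 3725 over all genes tested. Identical spans occurred in 3 groups of members on different chromosomes or places: LOC_Os04g16834 and LOC_Os05g22716 at 324 bases, LOC_Os04g16838, LOC_Os10g21332 and LOC_Os04g12370 at 432, and LOC_Os07g09760 and LOC_Os01g56870 at 5223. Whether these are copies that share reads was not tested, and how often other tested genes have the same span is not given here.

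The gene lists of seed pathways used here held 1 member, a share near the 0.928% of all genes. These lists are short, hand-written selections. TPI, the lipid transfer proteins and LOC_Os07g11510, the most abundant member, are in none of them. The count says nothing about genes outside the lists. Of 122 list loci for storage proteins, starch synthesis, sucrose and carbon supply, embryo and aleurone, endosperm transcription factors, endoplasmic reticulum folding, photosynthesis, cell cycle, heat shock and the circadian clock, 119 were tested and 1, HSP26.7, was a member. Of the 8 heat-shock genes tested HSP26.7 was the 1 that limma called lower, in P1MH and in P3MH, and none was called higher. The rule chose HSP26.7 by these same WT and mutant values, so its calls add nothing to its membership. Among the other lists, limma called 0 of 10 storage-protein genes lower in either mutant and 3 higher in P1MH and 1 in P3MH. It called 7 of 13 cell-cycle genes lower in P1MH and 1 in P3MH, 3 of 26 starch genes lower in P1MH and 1 in P3MH, and 2 of 17 photosynthesis genes lower in P1MH and 1 in P3MH. Of the 10 sucrose and carbon supply genes 2 were lower in P1MH and 0 in P3MH, and of the 10 endosperm transcription factors 2 and 1. No gene of the 10 for endoplasmic reticulum folding or the 7 of the clock was called in either mutant, and of the 8 embryo and aleurone genes 5 were higher in P1MH and 0 in P3MH. Over all genes tested 5.63% were called lower and 3.18% higher in P1MH, and 3.1% lower and 1.67% higher in P3MH.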

How the data were processed

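RNA of developing rice grains was made into ScriptSeq v2 libraries and sequenced, per the labels' protocols. The authors deposited 1 table of RPKM values with locus identifiers and regions, per the file headers. Neither aligner, counter, strand setting nor genome build is given in the sources used here. In all, 0 columns of per-sample values were left unused. The members and gene lists were chosen with earlier results of these data known.

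Read numbers were inferred from the steps between a gene's RPKM values, and a length was found for 16062 of 16064 genes. WT values lay on steps of 0.5 read and mutant values on whole reads. In WT, 84.6% of members and 84.0% of other genes had a value off the whole reads, so the steps ran with genotype, and neither their origin nor their part in the results was tested. The smallest length was taken, and 97 members allowed 1 length, so reads of the others may be too small. The floor was 3 reads.

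P1MH and P3MH were compared with limma 3.58.1 (R 4.3.3) with a trend and robust moderation on log2(RPKM + 1), over genes whose mean reached 1 RPKM, in 1 fit of all 9 libraries, with Benjamini-Hochberg adjustment at 0.05. Fold changes on this scale understate those of low genes. The p-values rest on the spread between repeats, which may in part be technical. The fit was tested on simulated data.

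Gene names came from RefSeq (assembly ASM3414082v1), which does not hold the deposited identifiers. A pair counted as checked when the chromosome matched, the span was 0.8 to 1.25 times the deposited one, and the position lay within 1500 bases of the usual shift between the assemblies. This held for 67 of 132 pairs. Names were tried for 11 members and 10 of them were checked, so 139 members have no checked name. Named loci were the 10 of highest mean, the 10 of widest ratio, the 5 at each side of the threshold, the 5 of widest mutant difference, those with a checked name and the runs of 3 neighbours. Other loci are named as chosen after their values were seen, or as neighbours. No sequences are printed. Further work used matplotlib 3.10.9, pandas 2.3.3 and numpy 2.4.6 under Python 3.11.15. Alternatives were other scalings, filters, pseudocounts, variance models, a replicate block and leaving out each library.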

Additional observations from a re-analysis of the deposited data

How the results depend on the processing

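The number of genes found by the rule, 149, moved with its conditions: it was 292 with no filter on low values, 80 with a mean of at least 5 RPKM, 73 with a ratio of 2 and 1696 with any lowest WT value above the highest mutant value. Rescaled libraries gave 112 to 123 genes (110 to 121 of them members), RPKM rescaled to 1 sum in each library gave 160 (132 members) and dropping the 10% limit gave 197. Leaving out each library gave 164 to 197. The median of all genes against WT, -0.099 in P1MH and -0.126 in P3MH, moved to -0.003 and 0.003 by median-ratio rescaling, where the members' medians were -1.65 and -1.38.

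Between the mutants, the 5 calls over all genes became 11 when scaled without the 50 highest genes, 0 with no filter, 2 on log2(RPKM + 0.1), 3 without trend and robust moderation, 3 with only the 6 mutant libraries and 0 to 242 when each library was left out. No member tested was called under any of these alternatives except the leave-outs, which gave 0 to 7, the 7 without P1MH replicate 3; the fit of the 6 mutant libraries tested 116 of the 149 members and that with a mean of at least 5 RPKM 80. The members' median of -0.12 ranged from -0.195 (mean of at least 5 RPKM) to -0.044 on log2(RPKM + 5), and from -0.148 to -0.025 when each library was left out, the last without P3MH replicate 3. Of 839 alternatives for named members 799 kept direction and side of the threshold, 37 turned the direction of a difference that was called neither with nor without the change, and LOC_Os01g28030 (2.47), LOC_Os10g16440 (2.71) and LOC_Os11g45360 (1.66) gained a call without P1MH replicate 3. Median-ratio, quantile and upper-quartile rescaling gave LOC_Os02g15710 -0.004, -0.011 and -0.004, from 0.00 on the deposited scale. LOC_Os12g02300 turned to -0.026 by median-ratio and -0.04 by upper-quartile rescaling, TPI to 0.029 by quantile normalization and LOC_Os11g45290 to 0.016 when scaled without the 50 highest genes. Leaving out each library turned the sign in 18 named members, whose log2 differences ranged as follows: TPI -0.272 to 0.075, LOC_Os02g07550 -0.66 to 0.004, LOC_Os02g15710 -0.164 to 0.164, LOC_Os02g20310 -0.412 to 0.031, HSP26.7 -0.536 to 0.005, LOC_Os04g16834 -0.338 to 0.636, LOC_Os04g54620 -0.507 to 0.081, LOC_Os05g14330 -0.045 to 0.521, GATA20 -0.203 to 0.029, LOC_Os06g50539 -0.329 to 0.019, LOC_Os09g09040 -0.204 to 0.523, LTP110-A -0.063 to 0.262, LOC_Os11g04000 -0.967 to 0.001, LOC_Os11g45290 -0.16 to 0.194, LOC_Os11g45295 -0.043 to 0.388, SFR2 -0.086 to 0.355, LOC_Os12g02300 -0.11 to 0.189 and UGD4 -0.259 to 0.02. Same-numbered repeats had correlations of deviations of -0.307 to 0.112. These values show no pairing by number, but with 3 repeats they cannot exclude one. With the number as a replicate block, 5 genes and 0 members were called and the median stayed at -0.12.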
